A study of Homo sapiens with 6 samples.

Results

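The MAP kinase dual-specificity phosphatases were followed in human induced pluripotent stem cells (hiPSCs) grown as aggregates in vertical wheel bioreactors. Their 10 genes, DUSP1, DUSP2, DUSP4, DUSP5, DUSP6, DUSP7, DUSP8, DUSP9, DUSP10 and DUSP16, were chosen by name as the phosphatases of this family that bind MAP kinases, and each was found once among the 19977 genes counted in every library. All 10 had at least 10 counts over the 6 libraries, the limit for testing, and none was lost to it.

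The cells were of the wild type line NCRM-1, a single hiPSC line. They were dissociated with TrypLE, seeded as single cells with a ROCK inhibitor and cultured for 4 days, with 50% of the medium replaced on day 2. The treated group grew in Essential 8 (E8) medium, which contains FGF2, with polyethylene glycol at 10 mg/ml and heparin sodium salt at 0.1 µg/ml (3 libraries, PEG and HS), and the other group in E8 without additives (E8 control, 3 libraries), so the 2 additives were given together and their effects cannot be told apart. The treatment text of the labels describes both additives for all 6 libraries, and the treatment stated for each library was followed here. Each medium carries 1 bioreactor letter in the labels, which reads as 1 vessel per medium, so a difference between vessels cannot be told apart from one between media, and the p-values below measure the spread between libraries, which may be technical.

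Each E8 control library had 26991279 to 36185138 reads on genes and each PEG and HS library 28148630 to 33849198. Mitochondrial genes made up 5.02% to 5.16% and 4.54% to 5.02% of the reads. The 8 pluripotency markers checked, of which DNMT3B was the highest, summed to 6902 to 7139 CPM, reads relative to library size, in PEG and HS and 7004 to 7149 CPM in E8 control. The 9 neuroectoderm markers, led by OTX2, summed to 159 to 165 CPM in E8 control and 41.2 to 46.3 CPM with PEG and HS, and none was at 0 in all libraries. The 7 mesoderm markers summed to 6.19 to 7.40 CPM in E8 control and 5.47 to 5.66 CPM with PEG and HS, with TBX6 the highest and MSGN1 at 0 in every library. The 6 endoderm markers, led by FOXA2, summed to 4.71 to 5.19 CPM in E8 control and 3.47 to 4.03 CPM with PEG and HS. The 6 trophectoderm and amnion markers, led by KRT7, summed to 14.7 to 15.6 CPM in E8 control and 6.91 to 7.15 CPM with PEG and HS. By edgeR, 3 pluripotency markers were called higher with PEG and HS (NANOG, POU5F1 and ZFP42, with log2 fold changes of 0.55, 0.23 and 0.11) and 3 lower (SOX2, LIN28A and SALL4, with -0.59, -0.30 and -0.25). These 6 were named after their values were seen. Over all genes tested, 12.2% were called higher and 13.1% lower. Of the markers tested, 8 of 9 neuroectoderm, 2 of 6 mesoderm, 0 of 4 endoderm and 2 of 5 trophectoderm and amnion markers were called, each of them lower. The part of these differences in the phosphatase results below was not tested. In bulk RNA, fewer cells of a type and less RNA per cell cannot be told apart.

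MAP kinases are switched on by phosphorylation of a threonine and a tyrosine in their activation loop. The dual-specificity phosphatases of this family remove both phosphates and so turn the kinases off again. ERK, JNK and p38 are the main substrates, and each phosphatase docks on its kinases through an amino-terminal domain. Several of the genes are themselves induced by ERK signalling, which closes a negative feedback loop. In human pluripotent cells, FGF2 in the medium drives ERK signalling, which takes part in keeping the primed pluripotent state. The family is commonly divided into nuclear inducible enzymes (DUSP1, DUSP2, DUSP4 and DUSP5), cytoplasmic ERK-selective enzymes (DUSP6, DUSP7 and DUSP9) and enzymes selective for JNK and p38 (DUSP8, DUSP10 and DUSP16).

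With PEG and HS, the transcripts of DUSP5, DUSP6, DUSP7 and DUSP16 rose and that of DUSP10 fell. DUSP1, DUSP2, DUSP4, DUSP8 and DUSP9 did not pass the test. The test was edgeR's quasi-likelihood F test with p-values adjusted by Benjamini-Hochberg over the 16505 genes tested, a gene being called at an adjusted p under 0.05. The 5 calls among 10 members (50%) stand beside 25.3% of all genes tested. Calls for a higher level were 4 of 10, beside 12.2% of all genes, and calls for a lower level 1 of 10, beside 13.1%. Called differences of at least 1.5-fold were found in 3 members (DUSP5, DUSP6 and DUSP10), beside 4.43% of all genes. The median log2 fold change of the 10 members was 0.041, against 0.003 over all genes, and the members moved in both directions. In 8 members no PEG and HS library overlapped an E8 control library, where 39.3% of all genes showed no overlap. Of these, 5 were higher in PEG and HS (19.5% of all genes) and 3 were lower (19.8% of all genes).

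**Figure D1:**
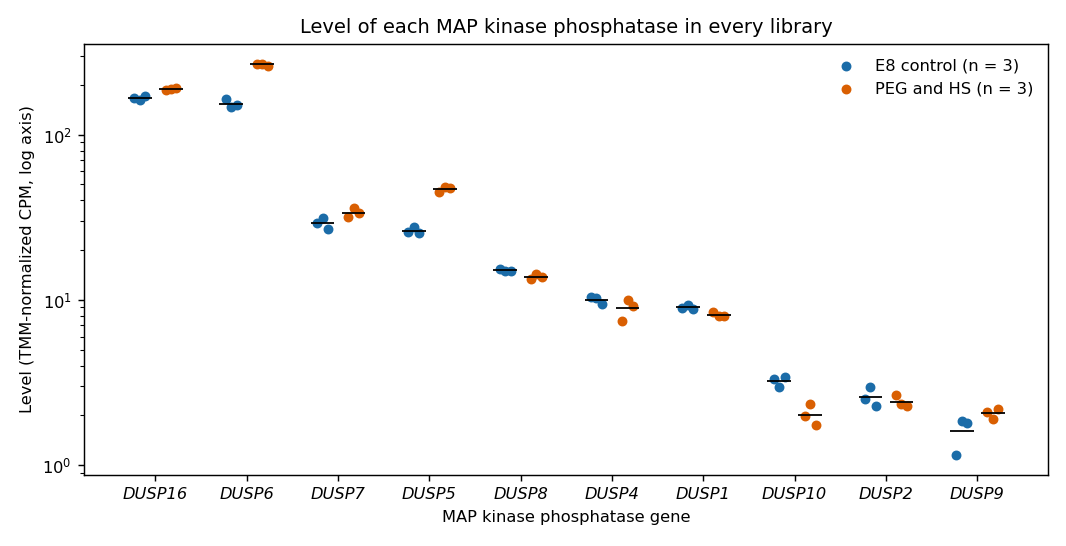
TMM-normalized CPM (log axis) of the 10 phosphatase genes, ordered by their mean in E8 control, with 1 point per library (3 per medium) and a bar at the mean. DUSP6 and DUSP5 stood clearly apart between media, at 260 to 269 against 146 to 163 CPM and 44.7 to 47.9 against 25.4 to 27.5 CPM, whereas the points of DUSP2 and DUSP4 overlapped.

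DUSP6 (ENSG00000139318, chr12:89347235-89352501 of GRCh38, minus strand), which encodes the ERK-selective phosphatase MKP-3 and is a standard readout of FGF and ERK signalling, was the most abundant member per length. Its level was 163.2, 146.4 and 151.9 CPM in the E8 control replicates and 267.8, 268.9 and 260.2 CPM in those with PEG and HS. Every PEG and HS library lay above every E8 control library, by a wide gap. The means were 266 ± 4.71 and 154 ± 8.61 CPM (SD, n = 3 each), a 1.73-fold higher level in PEG and HS (log2 fold change 0.79, 95% interval 0.71 to 0.87, adjusted p = 2.56e-10, edgeR). The gene was well counted, with 4404 to 9030 reads in each library. An antisense long noncoding RNA gene (ENSG00000274021) overlaps 1487 bases of the DUSP6 locus.

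DUSP7 (ENSG00000164086, chr3:52048919-52056571, minus strand), a cytoplasmic enzyme that also acts on ERK, changed far less. It had 29.3, 31.5 and 26.9 CPM in E8 control and 31.6, 35.9 and 33.6 CPM with PEG and HS. The groups did not overlap, but the lowest PEG and HS library (31.55 CPM) and the highest E8 control library (31.46 CPM) nearly met. The rise was 1.15-fold (log2 fold change 0.21, 95% interval 0.07 to 0.34, adjusted p = 0.0229, edgeR) and was lost without PEG and HS replicate 2 (log2 fold change 0.16, adjusted p = 0.103), without E8 control replicate 1 (0.21, adjusted p = 0.0569) or without E8 control replicate 3 (0.14, adjusted p = 0.112). The ratio of DUSP6 to DUSP7 transcripts, per length, was 6.84 to 8.31 in E8 control and 11.0 to 12.5 with PEG and HS, without overlap. The exact two-sided permutation p of this ratio was 0.1, the smallest that 3 libraries against 3 can give. The ratio was chosen after the values of its genes were seen, so this p adds no support.

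DUSP9 (ENSG00000130829, chrX:153642492-153651326, plus strand), the third ERK-selective member, was scarce. It had 1.15, 1.85 and 1.80 CPM in E8 control and 2.11, 1.91 and 2.19 CPM with PEG and HS. The E8 control replicate 1 was low, from 31 reads, and the other libraries lay close together on either side of 1.9 CPM. The difference did not pass the test (log2 fold change 0.36, 95% interval -0.07 to 0.78, adjusted p = 0.221, edgeR), and without that library it was 0.18. The gene had 31 to 74 reads per library.

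Among the nuclear members, DUSP5 (ENSG00000138166, chr10:110497907-110511533, plus strand), an inducible phosphatase specific for ERK, rose by a similar factor to DUSP6. It was measured at 25.7, 27.5 and 25.4 CPM in E8 control and 44.7, 47.9 and 47.6 CPM with PEG and HS. The libraries fell in 2 tight groups with no overlap. The means were 46.7 ± 1.77 and 26.2 ± 1.15 CPM (SD, n = 3 each), a 1.78-fold higher level in PEG and HS (log2 fold change 0.83, 95% interval 0.73 to 0.93, adjusted p = 4.01e-09, edgeR).

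The other nuclear members did not follow. DUSP4 (ENSG00000120875, chromosome 8, 29333064 to 29350684, minus strand), which encodes MKP-2 and acts on ERK, JNK and p38, had 10.3, 10.3 and 9.42 CPM in E8 control and 7.50, 10.0 and 9.13 CPM with PEG and HS. PEG and HS replicate 1 was low and the remaining libraries overlapped. The log2 fold change was -0.18 (95% interval -0.38 to 0.026, adjusted p = 0.201, edgeR), and it was -0.067 without that library. The interval of DUSP4 lay below that of DUSP5 throughout. The ratio of DUSP5 to DUSP4 per length, also chosen after the values were seen, was 7.13 to 7.73 in E8 control. With PEG and HS it was 13.7 to 17.1 (exact two-sided permutation p = 0.1, again the smallest possible).

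DUSP1 (ENSG00000120129, chr5:172768096-172771195, minus strand), which encodes MKP-1, an early response phosphatase that acts mainly on p38 and JNK, had 8.93, 9.27 and 8.84 CPM in E8 control and 8.42, 7.96 and 7.98 CPM with PEG and HS. The PEG and HS libraries were each below the E8 control libraries, by a small step. The difference did not pass the test (log2 fold change -0.15, 95% interval -0.31 to 0.0066, adjusted p = 0.158, edgeR). An antisense long noncoding RNA gene (ENSG00000253736) spans all 3100 bases of DUSP1. DUSP2 (ENSG00000158050, chr2:96143169-96145440, minus strand), which encodes PAC-1, known from activated lymphocytes, had 2.52, 2.99 and 2.27 CPM in E8 control and 2.67, 2.34 and 2.28 CPM with PEG and HS. The 2 groups overlapped fully at this low level (log2 fold change -0.09, 95% interval -0.43 to 0.24, adjusted p = 0.726, edgeR).

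The JNK- and p38-selective members went in different directions. DUSP16 (ENSG00000111266, chr12:12473282-12562863, minus strand), which encodes MKP-7, a JNK phosphatase that shuttles between nucleus and cytoplasm, had 167.3, 162.9 and 171.9 CPM in E8 control and 186.9, 188.3 and 191.2 CPM with PEG and HS. The groups did not overlap, and their spread was small. The rise was 1.13-fold (log2 fold change 0.17, 95% interval 0.11 to 0.24, adjusted p = 0.000364, edgeR). With 4513 to 6470 reads per library, the difference was larger than the spread between libraries. Of the DUSP16 locus, 1540 and 6229 bases are overlapped by the antisense long noncoding RNA genes ENSG00000290048 and ENSG00000255670.

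DUSP10 (ENSG00000143507, chr1:221701424-221742089, minus strand), which encodes MKP-5, a phosphatase of p38 and JNK, was the member that fell. It had 3.30, 2.96 and 3.44 CPM in E8 control and 1.99, 2.34 and 1.74 CPM with PEG and HS, from 59 to 124 reads per library. Every PEG and HS library lay below every E8 control library. The mean was 2.02 ± 0.298 CPM in PEG and HS against 3.23 ± 0.248 CPM in E8 control (SD, n = 3 each), a 1.61-fold higher level in E8 control (log2 fold change -0.68, 95% interval -1.01 to -0.35, adjusted p = 0.00428, edgeR). The ratio of DUSP16 to DUSP10 per length was 19.8 to 21.9 in E8 control and 32.0 to 43.5 with PEG and HS (exact two-sided permutation p = 0.1, the smallest possible). These 3 ratios were chosen after the values of the single genes were seen.

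DUSP8 (ENSG00000184545, chr11:1554051-1572271, minus strand), a JNK- and p38-directed enzyme best known from brain and heart, had 15.4, 14.9 and 14.9 CPM in E8 control and 13.4, 14.3 and 13.7 CPM with PEG and HS. Its PEG and HS libraries lay below those of E8 control without overlap. The log2 fold change was -0.13 (95% interval -0.26 to -0.0039) and did not pass after adjustment (adjusted p = 0.127, edgeR). DUSP8 is the member with most sequence in common with other genes, as 6.46% of the 31-base words of its transcripts also occur elsewhere, most in DUSP8P5. For the other members this share was 0.671% or less.

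**Figure D2:**
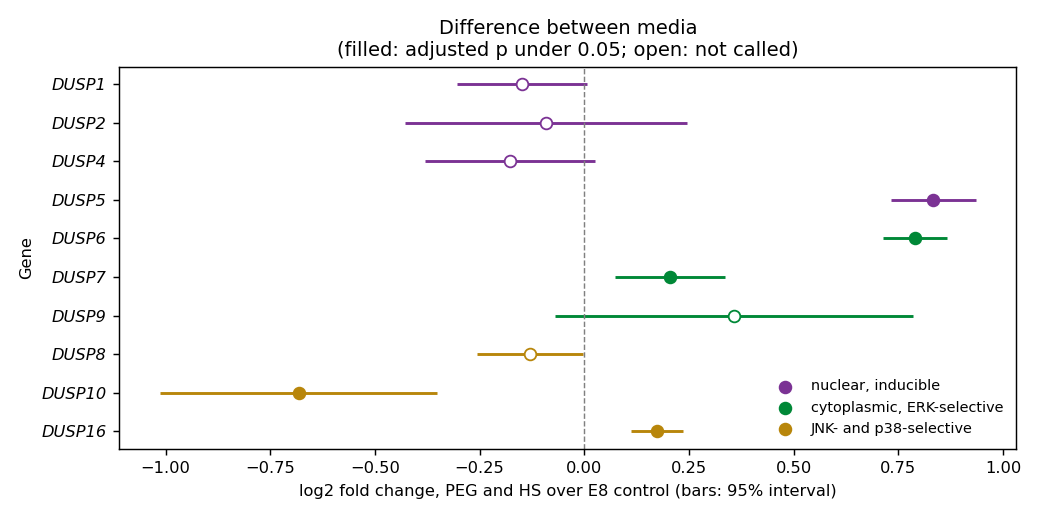
Log2 fold change of each phosphatase gene in PEG and HS over E8 control, with 95% intervals from the edgeR fit of 3 against 3 libraries. Colours mark the 3 subgroups and filled points an adjusted p under 0.05. DUSP5 (0.83) and DUSP6 (0.79) lie far to the right, DUSP10 (-0.68) to the left, and each subgroup holds members on both sides of 0 or with intervals that reach it.

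Per length, the family was dominated by a few genes. Levels were compared between genes as CPM per kb of merged exons. In E8 control, DUSP6 stood first with 39.9 ± 2.23 CPM per kb (SD, n = 3), followed by DUSP16 with 23.5 ± 0.630 and DUSP5 with 10.3 ± 0.455 CPM per kb. DUSP7 (5.15), DUSP1 (4.48), DUSP8 (3.04), DUSP4 (1.38), DUSP2 (1.34), DUSP10 (1.14) and DUSP9 (0.578 CPM per kb) came after them in that order. In E8 control, DUSP4 and DUSP2 overlapped in their libraries, as did DUSP2 and DUSP10, while the other neighbours in the order did not. In PEG and HS the first 6 places were the same, with 68.8 ± 1.22 CPM per kb for DUSP6. The order of the last 4 became DUSP2, DUSP4, DUSP9 and DUSP10, of which DUSP2 and DUSP4 overlapped and so did DUSP9 and DUSP10. The place of DUSP2 above DUSP4 depended on the length used. With the mean length of coding transcripts, DUSP4 held 0.815% and DUSP2 0.563% of the summed family level in PEG and HS.

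Summed over the 10 members, the level was 89.5 to 92.9 CPM per kb in E8 control and 129.5 to 132.2 CPM per kb with PEG and HS, without overlap, a ratio of means of 1.44. Without DUSP6, the other 9 members summed to 61.6 ± 1.27 and 50.9 ± 0.542 CPM per kb (SD, n = 3 each), a ratio of 1.21. The 3 cytoplasmic ERK-selective members summed to 75.5 ± 1.29 in PEG and HS and 45.6 ± 2.01 CPM per kb in E8 control. The 4 nuclear members summed to 24.9 ± 0.636 and 17.5 ± 0.798 CPM per kb, and the 3 JNK- and p38-selective members to 30.0 ± 0.312 and 27.7 ± 0.719 CPM per kb. Within the nuclear sum, only DUSP5 had a higher mean with PEG and HS. DUSP1, DUSP2 and DUSP4 had means of 4.03, 1.26 and 1.22 CPM per kb there, against 4.48, 1.34 and 1.38 in E8 control. DUSP6 made up 43.9% ± 1.58 of the summed family level in E8 control and 52.8% ± 0.752 with PEG and HS. The share of DUSP16 was lower in PEG and HS (20.3% ± 0.370 against 25.9% ± 0.822) although its own level was higher, and that of DUSP5 was higher (14.1% ± 0.469 against 11.4% ± 0.653). With the mean length of coding transcripts as the length, the shares of DUSP6 were 57.5% and 47.8%, those of DUSP16 26.3% and 33.5% and those of DUSP5 7.37% and 5.95%. These sums and shares are descriptions with no test.

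**Figure D3:**
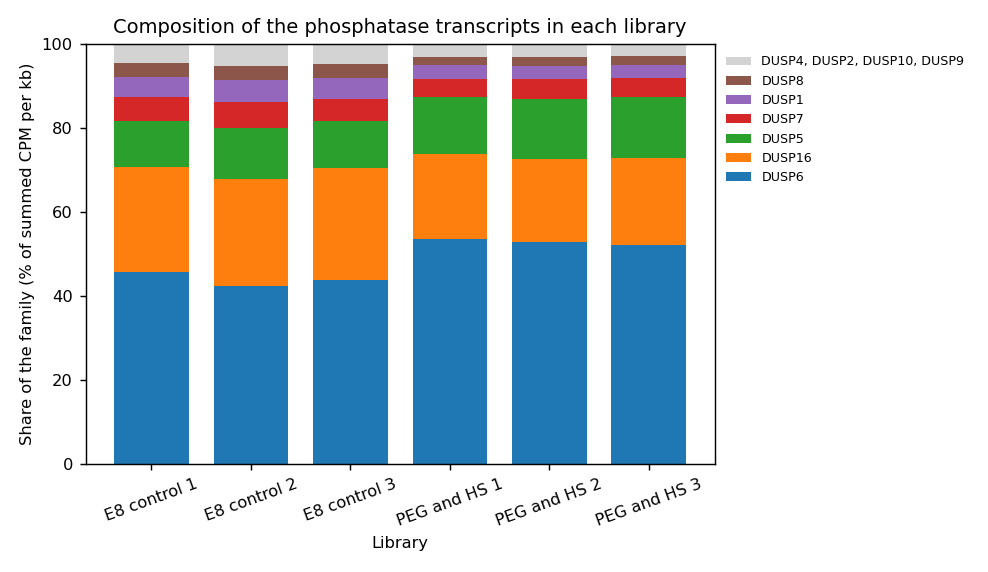
Share of each phosphatase gene in the summed CPM per kb of the family (%), in each of the 6 libraries. The DUSP6 segment takes 52.1% to 53.6% of each PEG and HS library and 42.4% to 45.5% of each E8 control library, and the DUSP16 segment is the second in every library.

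The spread between replicates was not the same in all members. The coefficient of variation of DUSP16 was 1.15% in PEG and HS and 2.69% in E8 control, and counting alone gives 1.29% and 1.38% at its depth. For DUSP6 it was 1.77% and 5.60%, where counting alone gives 1.09% and 1.44%. For DUSP7 it was 6.49% and 7.89%, where counting alone gives 3.06% and 3.30%. DUSP1 (3.21% and 2.48%) and DUSP8 (3.27% and 1.58%) lay below what counting alone gives. That is 6.23% and 5.94% for DUSP1, and 4.78% and 4.59% for DUSP8. DUSP9 varied most, with 24.4% in E8 control where counting gives 14.4%, and DUSP4 had 14.4% in PEG and HS where counting gives 5.97%.

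The sequence upstream of the start site was read for the called members with a promoter window. The pair found to hold a cyclic AMP response element were read too. RefSeq promoter windows (GRCh38.p14), from 250 bases before to 50 bases after the start site, matched 8 of the 10 members in 10 windows. DUSP4 and DUSP5 were not matched. Short words were searched on both strands. The cyclic AMP response element (CRE), bound by CREB and ATF proteins, was taken as TGACGTCA. For AP-1, the dimer of FOS and JUN proteins, TGAGTCA was searched, which is TGACTCA when read on the opposite strand. For ETS factors, which ERK phosphorylates, the word CCGGAA was used. A second ETS word, preferred by the PEA3 subgroup, was AGGAAG. The TATA word was TATAAA. The E-box bound by MYC was CACGTG. The GC box bound by SP1 was GGGCGG. The CArG box of serum response factor was searched as well. Matches are in capitals. The 3 members that rose are shown first, from 250 bases upstream to the base before the start site, at chr12:89352502-89352751, chr3:52056572-52056821 and chr12:12562864-12563113, followed by DUSP10, which fell, at chr1:221742090-221742339, each on the minus strand and 5′ to 3′.
DUSP6: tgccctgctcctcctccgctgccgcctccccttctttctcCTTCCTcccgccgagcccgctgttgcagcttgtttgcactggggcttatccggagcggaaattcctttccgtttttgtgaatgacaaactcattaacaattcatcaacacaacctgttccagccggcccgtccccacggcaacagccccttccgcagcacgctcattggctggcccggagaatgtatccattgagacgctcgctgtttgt
DUSP7: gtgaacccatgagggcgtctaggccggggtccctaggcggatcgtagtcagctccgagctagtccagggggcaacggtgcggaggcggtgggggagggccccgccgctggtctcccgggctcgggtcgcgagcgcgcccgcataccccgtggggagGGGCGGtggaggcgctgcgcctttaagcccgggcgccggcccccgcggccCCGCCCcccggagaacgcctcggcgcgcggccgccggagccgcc
DUSP16: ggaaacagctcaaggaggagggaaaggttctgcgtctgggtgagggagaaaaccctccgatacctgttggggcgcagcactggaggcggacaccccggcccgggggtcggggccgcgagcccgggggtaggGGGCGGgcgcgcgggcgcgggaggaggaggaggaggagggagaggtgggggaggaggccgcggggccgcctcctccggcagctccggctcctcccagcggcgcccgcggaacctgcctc
DUSP10: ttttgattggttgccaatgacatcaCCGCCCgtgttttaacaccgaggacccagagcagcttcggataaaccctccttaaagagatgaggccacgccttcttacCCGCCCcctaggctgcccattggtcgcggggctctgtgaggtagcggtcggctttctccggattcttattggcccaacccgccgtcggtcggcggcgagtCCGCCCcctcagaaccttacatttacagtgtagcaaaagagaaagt
DUSP6 held 1 PEA3-type word 210 bases upstream and no GC box. The PEA3-type word was also found in windows of DUSP2 and DUSP9, which were not called, and in a second window of DUSP10. The 250 bases shown for DUSP7, DUSP16 and DUSP10 held GC boxes as their sole matches. The PEA3-type word occurs in 33.6% of all 35116 promoter windows of the same length and the GC box in 45%, so both are common in promoters. In the 300 bases, GC content was 58.3% for DUSP6 and 55% for DUSP10, against 78% for DUSP7 and 73.3% for DUSP16.

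A CRE was found in the windows of DUSP1 and DUSP8, both of which were not called, and occurs in 1.85% of all windows. The stretches that hold them lie at chr5:172771286-172771345 and chr11:1572332-1572401, on the minus strand.
DUSP1: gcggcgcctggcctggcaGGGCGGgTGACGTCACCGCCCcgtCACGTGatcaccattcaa
DUSP8: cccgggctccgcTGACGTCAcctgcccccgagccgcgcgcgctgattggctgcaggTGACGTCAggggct
The DUSP1 stretch carries its CRE 125 bases upstream, between GC boxes and close to an E-box, and a TATA word 30 bases upstream lies outside it. DUSP8 carries 2 CREs, 118 and 74 bases upstream. No CRE was found in the windows of DUSP2, DUSP6, DUSP7, DUSP9, DUSP10 and DUSP16, and no AP-1, CCGGAA or CArG match in any of the 10 windows, which says only that these letters are not there.

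The 3′ untranslated regions were searched for TATTTAT, the core of AU-rich elements that are known to shorten the life of early response transcripts. It occurred in the main GENCODE 44 transcripts of 4 members, with 3 copies in DUSP1, 1 in DUSP2, 4 in DUSP4 and 2 in DUSP8. It did not occur in the 3′ untranslated regions of DUSP5, DUSP6, DUSP7, DUSP9, DUSP10 and DUSP16. The 4 members that hold it were not called between media, and the 5 called members lack it. DUSP9 lacks it as well and was not called. The 4 with the word had 480 to 2755 reads over the 6 libraries, whereas the called members had 501 (DUSP10) to 40072 (DUSP6). Their log2 fold changes were -0.18 to -0.09, and DUSP1 and DUSP8 were lower in PEG and HS without overlap. This split was noticed after the values were seen and is a description without a test. The word occurs in 31.5% of the 19435 genes with an annotated 3′ untranslated region. Among the 10078 genes whose 3′ untranslated region has at least 1000 bases, 49.9% hold it. The region has 654 to 3962 bases in the members with the word and 988 to 3551 bases in those without it. The sites of DUSP1, which hold most copies per length, and that of DUSP2 are shown with the word in capitals.
DUSP1 position 102: ggctggtcctTATTTATttaacttcac
DUSP1 position 370: gaatatacctTATTTATttttgtgtag
DUSP1 position 563: gtttgctgatTATTTATgacctgaaat
DUSP2 position 598: tagcactttaTATTTATacagaacatt
Positions count from the first base after the stop codon.

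The kinases that these phosphatases act on were called about as often as genes in general. Of 10 MAP kinase genes, 0 were called higher, 2 lower and 8 were not called (20% called, beside 25.3% of all genes tested), and their median log2 fold change was 0.021. MAPK3, which encodes ERK1, fell by 0.18 on the log2 scale, from 46.7 ± 1.82 to 41.2 ± 0.260 CPM (SD, n = 3 each, adjusted p = 0.00362, edgeR). MAPK10, the JNK gene of neural tissue, fell from 7.08 ± 0.832 to 4.10 ± 0.447 CPM (log2 fold change -0.78, adjusted p = 0.000129).

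Upstream of ERK, 2 of 18 genes rose and 2 fell (22.2% called, beside 25.3% of all genes tested), with a median of 0.005. The adaptor SHC1 rose 1.20-fold (346 ± 11.0 against 288 ± 6.45 CPM, adjusted p = 8.9e-06, edgeR) and the exchange factor SOS1 1.07-fold (adjusted p = 0.0438). The FGF receptor adaptor FRS2 fell by 0.17 and the kinase gene MAP2K2 by 0.12 on the log2 scale (adjusted p = 0.0144 and 0.0119). Upstream of JNK and p38, 4 of 16 genes rose and 3 fell (43.8% called, beside the same 25.3%), with a median of 0.006. The kinase gene MAP3K1 rose 1.29-fold (adjusted p = 1.27e-05) and MAP3K20 1.16-fold (adjusted p = 0.00584). The JNK scaffold genes MAPK8IP2 and MAPK8IP1 fell by 0.37 and 0.31 on the log2 scale (adjusted p = 0.00848 and 8.51e-05).

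Most transcripts on a list of those known to follow ERK activity were higher with PEG and HS, as were DUSP5 and DUSP6. The other nuclear inducible members, DUSP1, DUSP2 and DUSP4, were not (log2 fold changes -0.15, -0.09 and -0.18, none called). The list was chosen with earlier results of these data known, and a shared cause was not tested. Of the 15 listed genes, all outside the family, 12 rose, 2 fell and 1 was not called, with a median log2 fold change of 0.44. That is 93.3% called, beside 25.3% of all genes tested, of which 12.2% were called higher. SPRY4, a feedback inhibitor of receptor signalling, had 200, 180 and 187 CPM in E8 control and 325, 337 and 320 CPM with PEG and HS. IL17RD, another feedback inhibitor, rose 1.75-fold (adjusted p = 1.56e-11, edgeR) and SPRY4 1.73-fold (adjusted p = 2.47e-10), close to the 1.73-fold of DUSP6. The ephrin receptor gene EPHA4 went the other way, with a log2 fold change of -1.49 (9.31 ± 0.933 against 26.1 ± 0.434 CPM, adjusted p = 3.02e-10), and PHLDA1 fell by 0.35 (adjusted p = 2.75e-05).

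Of 12 immediate early genes, which are raised by ERK and also by handling, 3 rose and 3 fell, with a median of -0.052. That is 50% called, beside 25.3% of all genes tested. FOS rose 1.45-fold (adjusted p = 0.000726, edgeR) and IER2 1.31-fold (adjusted p = 7.29e-08). EGR1 had 34.0, 30.8 and 31.7 CPM in E8 control and 8.75, 8.46 and 8.45 CPM with PEG and HS. It fell by 1.91 on the log2 scale (adjusted p = 4.86e-12), opposite to DUSP5 and DUSP6. EGR3 was near 0 in both media, at 0.0925 ± 0.135 and 0.424 ± 0.0611 CPM (log2 fold change -2.26, adjusted p = 0.0303).

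Phosphatases outside the family were examined in the same way. Of 14 atypical DUSP genes, which lack the kinase-docking domain, 12 had enough counts, 1 rose, 1 fell and 10 were not called (16.7% called, beside 25.3% of all genes tested), with a median of -0.036. DUSP19 had 1.44 ± 0.102 CPM in E8 control and 2.28 ± 0.303 CPM with PEG and HS (log2 fold change 0.65, adjusted p = 0.0155, edgeR). DUSP22 fell from 37.0 ± 1.15 to 32.6 ± 1.03 CPM (log2 fold change -0.18, adjusted p = 0.00702). DUSP21, with 0 counts, and DUSP29, with 3, were not tested. The 3 tyrosine phosphatase genes with a kinase interaction motif, PTPN5, PTPN7 and PTPRR, were not called, with a median of 0.031.

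**Figure D4:**
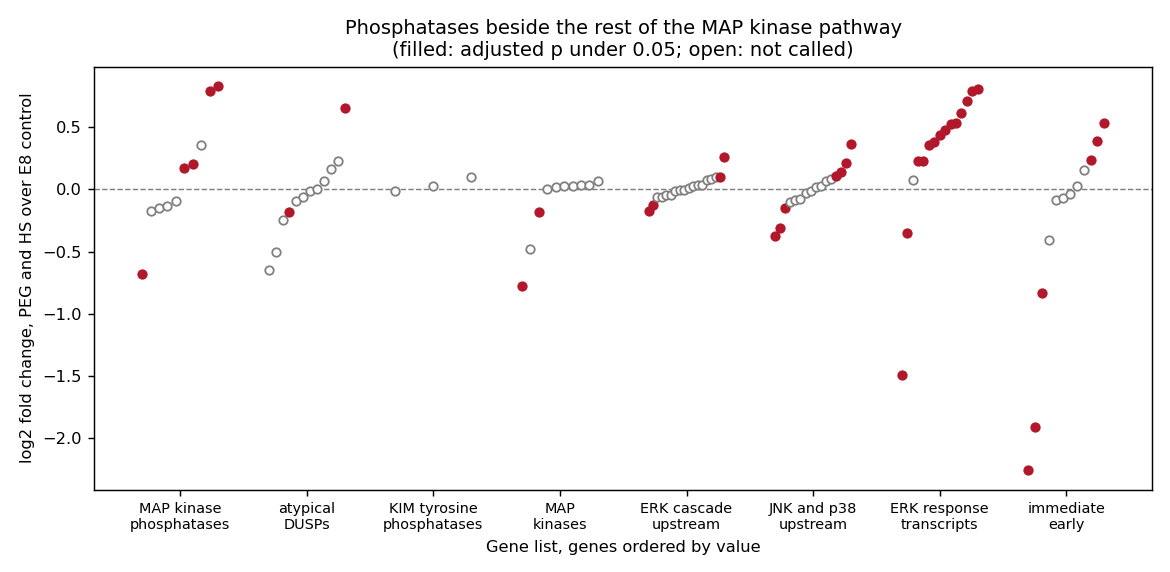
Log2 fold change in PEG and HS over E8 control for each tested gene of 8 lists, with filled points for an adjusted p under 0.05. The points of the ERK response list lie mostly above 0 (12 of 15 called higher), those of the MAP kinases near or below it (0 of 10 called higher), and the phosphatases run from -0.68 (DUSP10) to 0.83 (DUSP5). Of all genes tested, 12.2% were called higher.

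The calls of DUSP5, DUSP6, DUSP10 and DUSP16 held with each library left out in turn. The log2 fold change then lay between 0.81 and 0.87 for DUSP5, between 0.75 and 0.83 for DUSP6, between -0.79 and -0.58 for DUSP10 and between 0.15 and 0.19 for DUSP16, with an adjusted p of at most 1.56e-07, 3.35e-08, 0.023 and 0.0034.

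**Figure D5:**
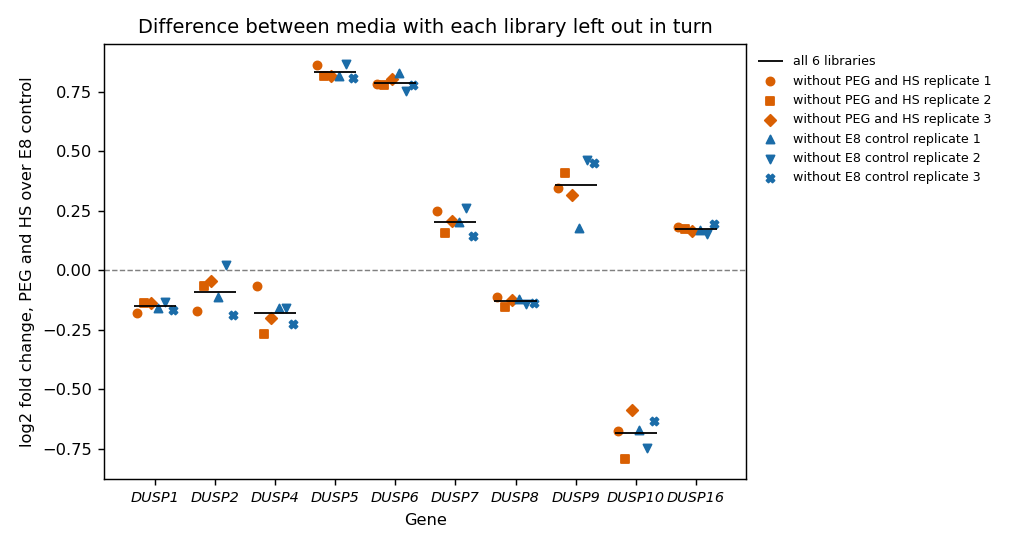
Log2 fold change of each phosphatase gene with all 6 libraries (bar) and with each library left out in turn (symbols, orange for a PEG and HS library and blue for an E8 control library). DUSP5, DUSP6, DUSP10 and DUSP16 keep their distance from 0, DUSP9 drops to 0.18 without E8 control replicate 1 and DUSP2 crosses 0 without E8 control replicate 2.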

How the data were processed

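Polyadenylated RNA was sequenced from stranded libraries. The authors trimmed reads with Trim Galore 0.6.7, aligned them to GRCh38 with STAR 2.6.1 and deposited raw counts per gene, 1 library per sample, without normalization. The counting tool, its strand setting and the annotation release are not given in the sources used here. Antisense genes overlap DUSP1, DUSP6, DUSP8 and DUSP16, and without a known strand setting their reads cannot be told apart. Of 19977 identifiers, 19916 matched GENCODE 44 symbols. A gene needed at least 10 counts over the 6 libraries. The fit used edgeR 4.0.16 in R 4.3.3 (TMM, glmQLFit, glmQLFTest, no covariate). Standard errors came from the F statistic (size of the log2 fold change over √F), and intervals are at 95%. The common biological coefficient of variation was 3.12%. No library duplicated another (chi-square per degree of freedom at least 2.58 between replicates). The scripts were tested on simulated data. The members and lists were chosen with earlier results of these data known. Genes named are all members and, per list, up to 2 with the largest rise and 2 with the largest fall among calls, besides MAPK3, with the highest marker and markers at 0. A gene that this rule also names is not reported here. Alternatives were DESeq2 1.42.0, limma-voom (limma 3.58.1), other normalizations and filters, a robust fit, a replicate block and left-out libraries. Promoter sequences are from RefSeq.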

Additional observations from a re-analysis of the deposited data

How the results depend on the processing

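Of 160 values of the 10 members under 16 alternatives each, 156 had the sign and the call at 0.05 that the report gives, 3 lost the call and 1 changed sign. The 3 losses were of DUSP7, whose log2 fold change lay between 0.14 and 0.26 with a library left out. The sign of DUSP2, never called, changed without E8 control replicate 2, with log2 fold changes of -0.19 to 0.022 over the left-out libraries. DESeq2, limma-voom, the other normalizations, the filters and the robust fit each called 5 members, and left-out libraries gave 4 to 5. Over all genes, 3114 to 4444 were called. The replicate numbers did not pair the libraries (correlation of deviations 0.0305 to 0.0434). The fit with the replicate number as a block called 5 members and 4444 genes, with DUSP7 at 0.21 (adjusted p = 0.00717) and DUSP10 at -0.68 (adjusted p = 0.00732), and changed no member's call. Depth limits DUSP2, DUSP9 and DUSP10, at 31 to 124 reads per library.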
